A study of Homo sapiens with 8 samples.

Results

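The 10 genes described here help decide where pyruvate goes were followed in cultures of esophageal epithelium treated with dimethyloxalylglycine (DMOG). They are LDHA and LDHB (subunits of lactate dehydrogenase), PDK1, PDK2, PDK3 and PDK4 (pyruvate dehydrogenase kinases), PDP1 (a pyruvate dehydrogenase phosphatase), MPC1 and MPC2 (the mitochondrial pyruvate carrier) and PC (pyruvate carboxylase). The genes were taken by symbol, and all 10 were found among the 25369 genes listed. The 4 DMOG libraries came from cultures given 1 mM DMOG for 18 h, and the 4 vehicle libraries from cultures given DMSO. Both groups were wild-type EPC2-hTERT cells (human keratinocytes of the esophagus that telomerase has made immortal) on porous membranes with their upper face in air for 4 days. The culture settings, the same in both groups, also list 1.8 mM calcium for 5 days. They further list bovine pituitary extract at 50 micrograms per ml and epidermal growth factor at 1 ng per ml. DMOG is an analog of 2-oxoglutarate that inhibits the prolyl hydroxylases, whose best known substrates are the alpha subunits of hypoxia-inducible factor (HIF). It also acts on other enzymes that use 2-oxoglutarate. All libraries came from a single cell line, and nothing in the labels states that replicates were separate cultures. The p-values therefore reflect the variation among these libraries, which may be technical in origin.

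Pyruvate, the end product of glycolysis, has several fates. Lactate dehydrogenase turns it into lactate in the cytosol and regenerates the NAD+ that glycolysis needs. The enzyme is a tetramer of LDHA and LDHB subunits, and tetramers rich in LDHA are classically found where lactate is made, those rich in LDHB where it is used. The MPC1 and MPC2 proteins form a heterodimer that carries pyruvate across the inner mitochondrial membrane. In the matrix, the pyruvate dehydrogenase (PDH) complex converts it to acetyl-CoA, and pyruvate carboxylase converts it to oxaloacetate. PDH kinases phosphorylate and switch off the complex, and PDH phosphatases switch it on again. LDHA and PDK1 are textbook targets of HIF-1, and PDK4 is best known as a gene induced by fasting and by PPAR receptors.

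HIF binds DNA at a short core, ACGTG, and the RefSeq promoter windows of these genes were searched for it on both strands. Each window ran from 250 bases before to 50 bases after an annotated transcript start on GRCh38.p14, and 17 windows were matched to 9 of the 10 genes. The core was present in 5 of the 17 windows, or 29.4%, against 21.4% of all 35116 promoter windows. A window of LDHA held 5 matches in the 250 bases before its start, and those of PDK1, PDK2 and PC held 2 each and that of PDK3 held 1. The stretches of 30 bases below show those matches, except for LDHA, where 3 of the 5 lie in the stretch shown. Every gene with such a match is shown, whatever its fold change. Each is written 5′ to 3′ on the gene's own strand, with ACGTG, or its reverse complement CACGT, in capitals. The run CACGTG reads the same on both strands and counts as 2 matches.
LDHA: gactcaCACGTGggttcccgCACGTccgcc
PDK1: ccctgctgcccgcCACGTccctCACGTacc
PDK2: cccgggggaagcCACGTGccggggcggaag
PDK3: tcgcgcgccgcgtACGTGcagcaaccgact
PC: tgACGTGgggcgccaaggcttaaACGTGac
They lie at chr11:18394470-18394499 on the plus strand for LDHA, from position -93 to -64 relative to the start. The PDK1 stretch is chr2:172556060-172556089 (plus strand, -30 to -1) and that of PDK2 is chr17:50095210-50095239 (plus strand, -141 to -112). The PDK3 stretch is chrX:24465212-24465241 (plus strand, -74 to -45) and that of PC is chr11:66958540-66958569 (minus strand, -186 to -157). LDHA, PDK1, PDK2 and PC have other annotated starts whose windows lack ACGTG. The related core GCGTG was in 8 of the 17 windows (47.1%), against 36.5% of all windows. Windows of a gene can overlap, so a single site can count more than once. This was so for GCGTG at MPC2 (chr1:167937020-167937319 and chr1:167937023-167937322). A match is a description of the letters and not evidence of binding.

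Levels are given as RPKM, read counts divided by gene length and by library total, so that levels of different genes may be set side by side. Recovered library totals were 31245695 to 39931833 reads. All 10 markers of squamous keratinocytes were at 1 RPKM or more, with a summed level of 14987 to 15267 RPKM in DMOG libraries and 10833 to 19023 RPKM in vehicle libraries. Of the 18 markers of other cells described here, COL1A1 and VWF alone reached 1 RPKM in any library, and DCN, CDH5, CDX2, VIL1 and DES were at 0 in all 8. The 5 fibroblast markers summed to 19.0 to 32.0 RPKM with DMOG and 8.75 to 14.1 RPKM with vehicle, nearly all of it COL1A1, a collagen chain. In such bulk libraries, fewer cells of a type and less RNA per cell cannot be told apart. The libraries did not separate cleanly by treatment. On the first principal component, which held 65.5% of the variance, DMOG replicates 1, 3 and 4 lay at -35.7, -14.9 and -56.3, DMOG replicate 2 lay at 17.1, and the 4 vehicle libraries lay at 21.2 to 23.5. Of all 28 pairs of libraries, DMOG replicate 2 and vehicle replicate 1 were the most alike, although a chi-square per degree of freedom of 17.9 shows that they are not copies. CA9, a HIF target encoding a carbonic anhydrase, stood at 25.2, 2.56, 9.97 and 57.5 RPKM in DMOG replicates 1 to 4 and at 0.925, 1.29, 0.129 and 0.586 RPKM in vehicle replicates 1 to 4. For CA9, DMOG replicate 2 lay above the vehicle libraries but below the other DMOG libraries, and so it did for NDUFA4L2, at 48.1 RPKM against 7.25 to 23.9 RPKM with vehicle. For EGLN3, another HIF target, it lay at 9.93 RPKM, within the vehicle range of 5.46 to 13.2 RPKM, while the other DMOG libraries were at 35.6 to 334 RPKM.

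For this reason fold changes are given for all 8 libraries and for the 6 libraries (replicates 1, 3 and 4 of each group) that enter the authors' own deposited group means. No source used here says why replicate 2 was omitted. If the omission rests on measured values, the 6-library p-values are too small by an unknown amount. Fold changes come from limma-trend on log2(scaled RPKM + 1), DMOG minus vehicle, with Benjamini-Hochberg adjustment over 11121 genes and a threshold of 0.05. The added 1 shrinks the fold change of weakly expressed genes. Over the 8 libraries, 0% of genes were called higher and 0% lower. Without adjustment, 1668 genes lay higher and 1723 lower at p under 0.05, and limma-voom on recovered reads also called 0 genes in each direction. Over the 6 libraries, 14.4% of the genes tested were called higher and 15.8% lower. Of the 10 pyruvate genes, 8 passed the filter on low values, and of these 2 (LDHA and PDK1) were called higher, 0 lower and 6 were not called. PDK3 and PDK4 did not pass the filter. CA9 (4.29, adjusted p = 0.00610), EGLN3 (3.76, adjusted p = 0.0152) and NDUFA4L2 (3.67, adjusted p = 0.00784) were also called higher over the 6 libraries and not over the 8. These 3 genes were used above to describe DMOG replicate 2, which the 6 libraries leave out. Their 6-library p-values are therefore not separate evidence. The same held for 4 of the 10 squamous markers, KRT5 (0.76, adjusted p = 0.0304), KRT14 (0.70, adjusted p = 0.0167), DSG3 (0.37, adjusted p = 0.0416) and TRIM29 (0.80, adjusted p = 0.0329), and for COL1A1 (1.33, adjusted p = 0.00549). The other 6 squamous markers were not called over the 6 libraries. Of those, KRT4, TP63, CDH1 and SOX2 had negative log2 fold changes there, and IVL and KRT13 had positive ones. The squamous markers thus did not move as a set. The part of the squamous markers and of COL1A1 in the results was not tested. The median log2 fold change of the 8 was -0.07 over the 6 libraries and -0.04 over the 8 libraries, beside 0.01 and 0.01 over all genes tested.

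LDHA, the subunit linked to lactate production, was the most abundant of the 10 genes and had the largest fold change of the 8 tested. It stood at 1066, 369, 699 and 1405 RPKM in DMOG replicates 1 to 4 and at 307, 410, 299.7 and 293 RPKM in vehicle replicates 1 to 4. DMOG replicates 1, 3 and 4 exceeded every vehicle library, while DMOG replicate 2 lay within the vehicle range. Over the 6 libraries the means were 1057 ± 353 RPKM with DMOG and 300.0 ± 6.97 RPKM with vehicle (SD, n = 3 each), a ratio of 3.52. The log2 fold change was 2.07 ± 0.27 (SE, adjusted p = 0.00564), the 38th highest of the 11121. Over the 8 libraries the means were 885 ± 449 RPKM with DMOG and 327 ± 55.2 RPKM with vehicle (SD, n = 4 each), and the log2 fold change of 1.51 ± 0.42 was not called (adjusted p = 0.119). With DMOG replicate 2 alone left out of the 8, LDHA was called, at a log2 fold change of 1.93 (adjusted p = 0.00324). The authors' deposited table gives a log2 fold change of 2.14 for LDHA with an adjusted p of 2.86e-12. The gene spans 18415936 to 18429765 on the plus strand of chromosome 11 (hg19, as for all positions from the deposited table), and between 25494 and 112092 reads stand behind each value.

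LDHB, which encodes the other subunit, ran the opposite way in values but was not called. Its levels were 39.8, 73.0, 55.2 and 34.1 RPKM in DMOG replicates 1 to 4 and 73.0, 81.9, 65.6 and 64.9 RPKM in vehicle replicates 1 to 4. The groups overlapped through DMOG replicate 2, which matched vehicle replicate 1 to the digits given. The log2 fold change was -0.36 ± 0.15 over the 6 libraries (SE, adjusted p = 0.114) and -0.32 ± 0.19 over the 8 libraries (adjusted p = 0.253). Without DMOG replicate 3, the 6-library value was -0.52 and was called lower (adjusted p = 0.0118). The gene lies at 21788275 to 21810789 on the minus strand of chromosome 12.

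**Figure D1:**
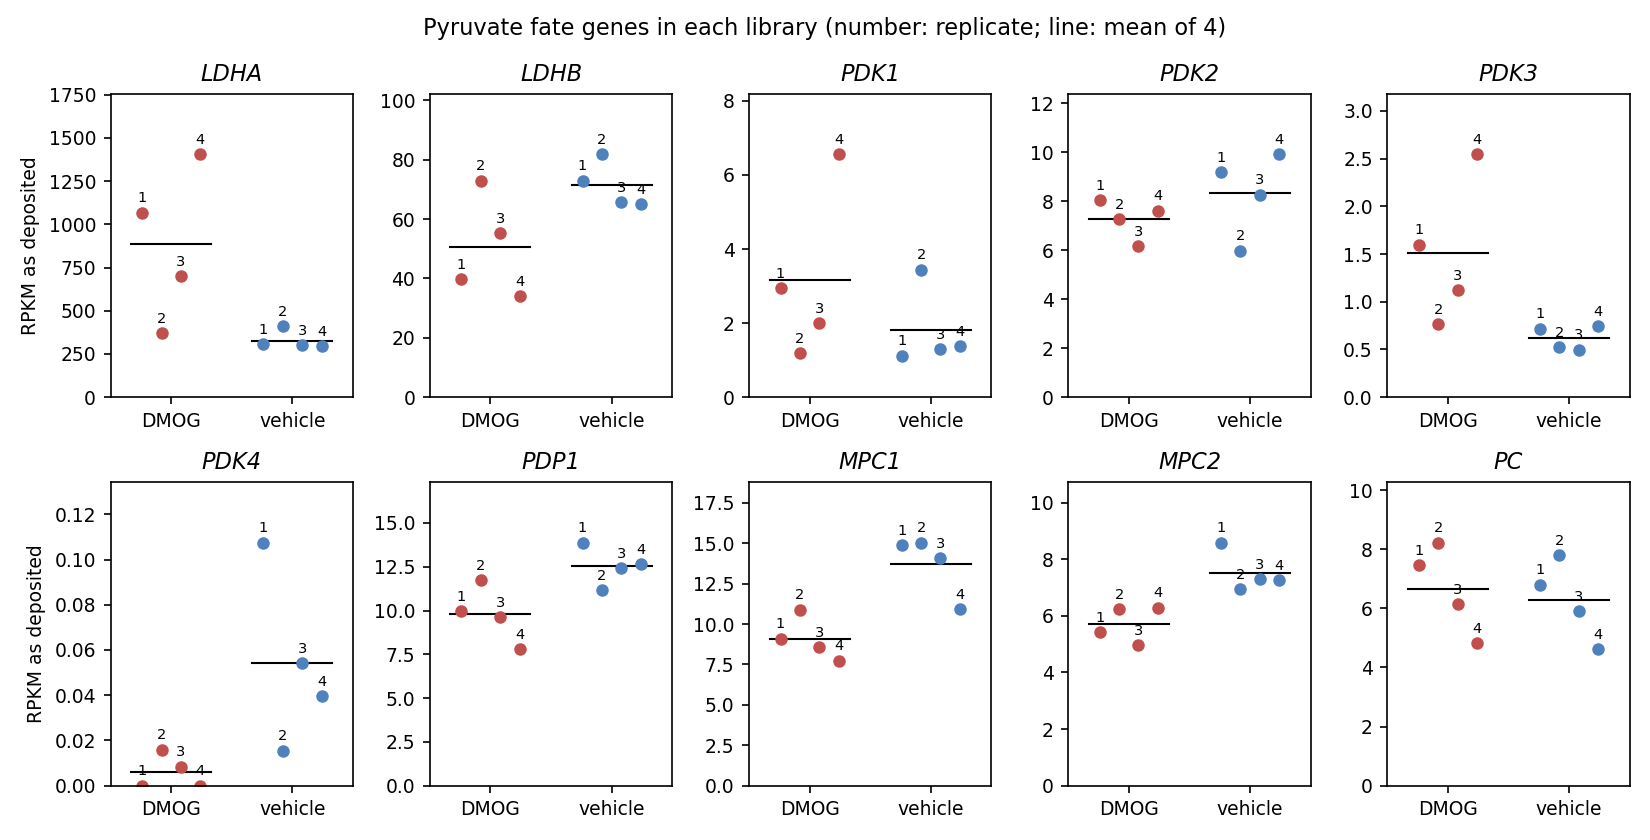
Level of each of the 10 genes in each library, in RPKM as deposited, with DMOG libraries at the left (red) and vehicle libraries at the right (blue). Points carry their replicate number and lines are means of 4. LDHA is at 1066, 699 and 1405 RPKM in DMOG replicates 1, 3 and 4, above all vehicle libraries, while DMOG replicate 2 lies among them, and PDK3 is higher in all 4 DMOG libraries than in any vehicle library.

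The balance of the subunits does not depend on how libraries are scaled, because both are read in the same library. The ratio of LDHA to LDHB in RPKM was 26.8, 5.06, 12.7 and 41.2 in DMOG replicates 1 to 4 and 4.21, 5.01, 4.57 and 4.51 in vehicle replicates 1 to 4. All 4 DMOG libraries lay above all 4 vehicle libraries, but DMOG replicate 2 did so by a margin of 5.06 against 5.01. The mean log2 ratio was 4.03 ± 1.33 with DMOG and 2.19 ± 0.10 with vehicle (SD, n = 4 each), a difference of 1.84, or 3.57-fold. A two-sided exact permutation test over libraries gave p = 0.0286, the smallest that 70 arrangements allow. Leaving out a vehicle library gave an exact p of 0.0571 each time, and differences between 1.80 and 1.88. Over the 6 libraries the difference was 2.45, or 5.45-fold, with an exact p of 0.1, the smallest that 20 arrangements allow. As a share of the summed LDHA and LDHB RPKM, LDHA made up 96.4%, 83.5%, 92.7% and 97.6% in DMOG replicates 1 to 4 and 80.8%, 83.3%, 82.0% and 81.9% in vehicle replicates 1 to 4. LDHA mRNA was thus the main form in every library, vehicle included, and the sum itself was 442 to 1439 RPKM with DMOG and 358 to 492 RPKM with vehicle.

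The 4 kinases that switch off the PDH complex did not move as a group. PDK1, the kinase best known as a HIF-1 target, stood at 2.94, 1.18, 1.99 and 6.56 RPKM in DMOG replicates 1 to 4 and at 1.12, 3.44, 1.29 and 1.38 RPKM in vehicle replicates 1 to 4. Replicate 2 was out of step in both groups: DMOG replicate 2 lay within the vehicle range, and vehicle replicate 2 lay above DMOG replicates 1 to 3. Over the 6 libraries the means were 3.83 ± 2.41 RPKM with DMOG and 1.26 ± 0.133 RPKM with vehicle (SD, n = 3 each), a ratio of 3.03. The log2 fold change was 1.20 ± 0.35 (SE) and was called higher, with an adjusted p of 0.0416. That call was lost when vehicle replicate 2 was added (0.93, adjusted p = 0.0953), when no filter was applied (adjusted p = 0.0879), and when any 1 of DMOG replicate 1 or vehicle replicates 1, 3 or 4 was left out (adjusted p = 0.0911 to 0.119). Over the 8 libraries the log2 value was 0.64 ± 0.42 and was not called (adjusted p = 0.305). For PDK1 the authors' deposited table gives a log2 fold change of 1.94 with an adjusted p of 9.5e-05. The gene lies at 173420101 to 173490351 on the plus strand of chromosome 2, and its 8 values rest on 213 to 1194 reads.

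PDK2, a widely expressed kinase, was the most abundant of the 4 in every library. It stood at 8.03, 7.26, 6.15 and 7.61 RPKM in DMOG replicates 1 to 4 and at 9.18, 5.98, 8.27 and 9.92 RPKM in vehicle replicates 1 to 4. The log2 fold change was -0.01 ± 0.14 over the 6 libraries (SE, adjusted p = 0.948; 95% interval -0.34 to 0.31) and 0.04 ± 0.15 over the 8 libraries (adjusted p = 0.863), so its sign was not settled. PDK2 lies at 48172101 to 48188733 on the plus strand of chromosome 17 and overlaps SAMD14 on the opposite strand, which reached 1.93 RPKM with DMOG and 0.653 RPKM with vehicle.

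PDK3, the X-linked kinase, was low but separated the groups completely. Its levels were 1.60, 0.762, 1.12 and 2.55 RPKM in DMOG replicates 1 to 4 and 0.719, 0.525, 0.498 and 0.744 RPKM in vehicle replicates 1 to 4, from 342 to 1045 reads with DMOG and 240 to 333 reads with vehicle. It was the only one of the 10 genes with every DMOG library above every vehicle library both as deposited and after scaling. Such complete separation upwards held for 2.09% of the 19194 genes with any value as deposited, and for 4.57% after scaling. PDK3 reached 1 RPKM in 3 libraries, all of them DMOG, so it missed the filter of 4. With a filter of 3 libraries, an alternative added after the data were seen that favours a gene high in exactly those libraries, the log2 fold change was 0.87 ± 0.22 over the 6 libraries (SE, adjusted p = 0.0282). Without any filter it was 0.87 with an adjusted p of 0.0568. Limma-voom on recovered reads without any filter, also added after the data were seen, gave 1.66 (adjusted p = 0.0144). Over the 8 libraries limma-trend gave 0.70 (adjusted p = 0.199 without any filter). The authors' deposited table lists PDK3 with a log2 fold change of 1.76 and an adjusted p of 7.88e-06. The gene spans 24483344 to 24568583 on the plus strand of chromosome X.

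PDK4 was close to absent. It had 0, 2, 1 and 0 reads in DMOG replicates 1 to 4 and 13, 2, 8 and 5 reads in vehicle replicates 1 to 4, or 0 to 0.0158 RPKM with DMOG and 0.0155 to 0.107 RPKM with vehicle. After scaling, all DMOG libraries lay below all vehicle libraries, which held for 4.63% of genes with any value, but both replicates numbered 2 had 2 reads. A count of 0 allows up to 3 reads by counting error alone. Without any filter the 6-library log2 fold change was -0.08 (adjusted p = 0.0692), and limma-voom on recovered reads, added after the data were seen, gave -3.13 (adjusted p = 0.0151). With so few reads PDK4, at 95212809 to 95225925 on the minus strand of chromosome 7, contributed under 1% of kinase RPKM in every library.

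The summed RPKM of the 4 kinases and their shares in it were set out for each library. The sum was 12.6, 9.22, 9.27 and 16.7 RPKM in DMOG replicates 1 to 4 and 11.1, 9.96, 10.1 and 12.1 RPKM in vehicle replicates 1 to 4. PDK1 supplied 23.4%, 12.8%, 21.5% and 39.2% of it in DMOG replicates 1 to 4 and 10.05%, 34.6%, 12.8% and 11.4% in vehicle replicates 1 to 4. PDK3 supplied 8.26% to 15.2% with DMOG and 4.92% to 6.46% with vehicle, without overlap. PDK2 kept the largest share in every library, at 45.5% to 78.8% with DMOG and 60.0% to 82.5% with vehicle. These shares are descriptions and were not tested.

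**Figure D2:**
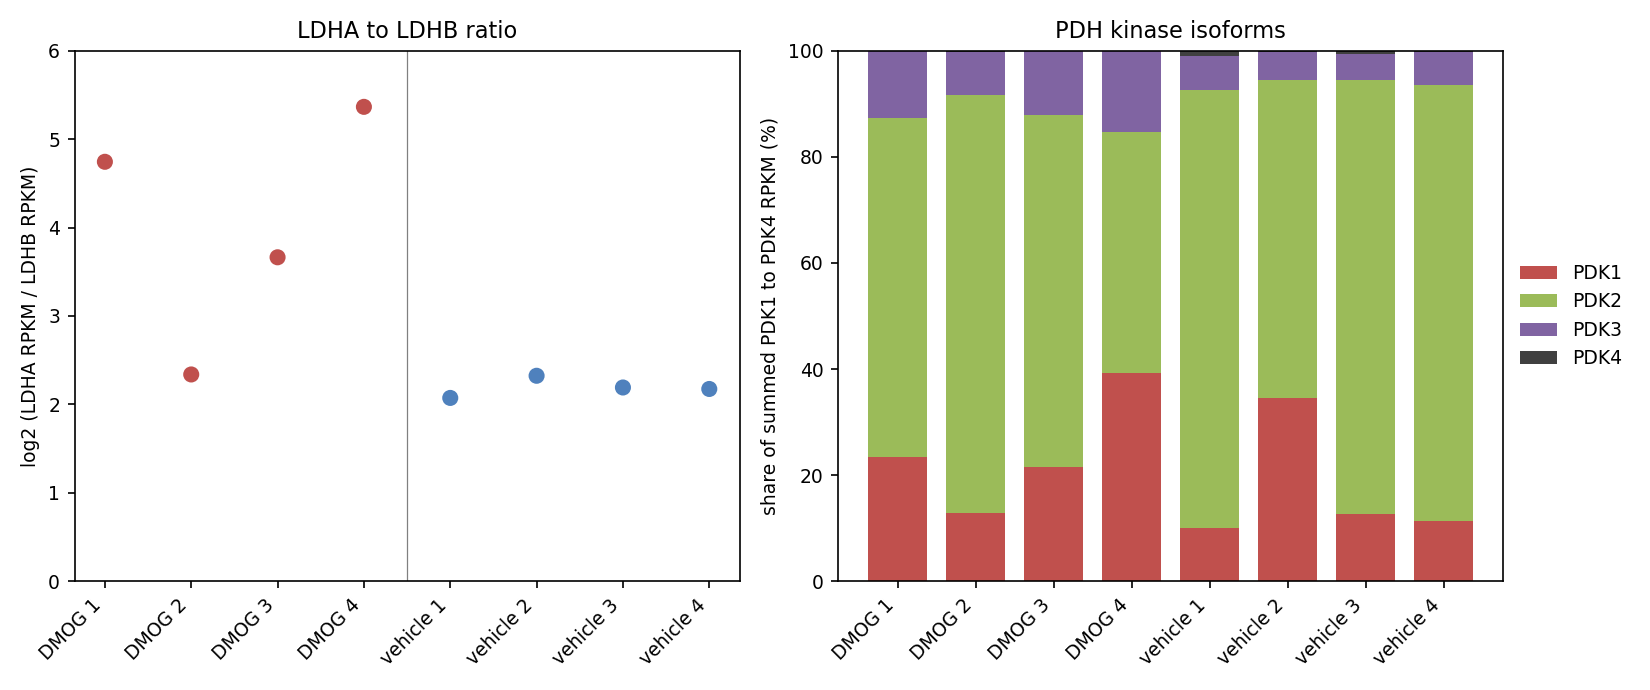
Left, log2 ratio of LDHA to LDHB RPKM in each library, DMOG libraries (red) before vehicle libraries (blue). Right, share of each kinase in the summed RPKM of PDK1 to PDK4, in percent. The ratio is 4.74, 3.66 and 5.37 in DMOG replicates 1, 3 and 4 and 2.34 in DMOG replicate 2, against 2.07 to 2.32 in vehicle libraries, and PDK1 takes 39.2% in DMOG replicate 4 and 34.6% in vehicle replicate 2.

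PDP1, the catalytic subunit of a phosphatase that reverses the work of the kinases, stood at 9.97, 11.7, 9.63 and 7.78 RPKM in DMOG replicates 1 to 4 and at 13.9, 11.1, 12.4 and 12.6 RPKM in vehicle replicates 1 to 4. Replicates 1, 3 and 4 of the DMOG group were below every vehicle library, and DMOG replicate 2 lay above vehicle replicate 2. After scaling, the log2 fold change was -0.18 ± 0.11 over the 6 libraries (SE, adjusted p = 0.224) and -0.13 ± 0.10 over the 8 libraries (adjusted p = 0.380). The summed kinase RPKM over PDP1 RPKM was 1.26, 0.786, 0.963 and 2.15 in DMOG replicates 1 to 4 and 0.802, 0.893, 0.814 and 0.955 in vehicle replicates 1 to 4. DMOG replicates 1, 3 and 4 exceeded all vehicle libraries in this ratio, and DMOG replicate 2 was below them. PDP1 lies at 94929083 to 94938296 on the plus strand of chromosome 8.

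The pyruvate carrier subunits were lower in value with DMOG, and neither was called after scaling. MPC1 stood at 9.08, 10.9, 8.58 and 7.74 RPKM in DMOG replicates 1 to 4 and at 14.9, 15.0, 14.1 and 10.9 RPKM in vehicle replicates 1 to 4. MPC2 stood at 5.42, 6.24, 4.96 and 6.28 RPKM in DMOG replicates 1 to 4 and at 8.58, 6.93, 7.29 and 7.25 RPKM in vehicle replicates 1 to 4. As deposited, all DMOG libraries lay below all vehicle libraries for both (for MPC1 by less than the digits shown, between DMOG replicate 2 and vehicle replicate 4), which held for 8.52% of all genes with any value, and after scaling both overlapped. For MPC1 the log2 fold change was -0.30 ± 0.14 over the 6 libraries (SE, adjusted p = 0.143) and -0.34 ± 0.14 over the 8 libraries (adjusted p = 0.141). For MPC2 it was -0.13 ± 0.14 over the 6 libraries (adjusted p = 0.484) and -0.14 ± 0.12 over the 8 libraries (adjusted p = 0.409). The 6-library 95% intervals ran from -0.62 to 0.03 for MPC1 and from -0.47 to 0.20 for MPC2. MPC1 over MPC2 was 1.23 to 1.75 with DMOG and 1.504 to 2.17 with vehicle, so MPC1 had the higher RPKM in all 8 libraries. MPC1 spans 166778408 to 166796501 on the minus strand of chromosome 6, and MPC2 spans 167885913 to 167906307 on the minus strand of chromosome 1, where it overlaps DCAF6 on the opposite strand (up to 14.5 RPKM with DMOG and 14.7 RPKM with vehicle).

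Scaling bore on these genes because the median gene itself differed between the groups. In RPKM as deposited, the median log2 fold change over all genes tested was -0.26 over the 6 libraries. On that scale 34.5% of all genes tested were called lower and 6.13% higher. Of the 8 pyruvate genes tested, 4 were called lower, namely LDHB (-0.67, adjusted p = 0.0230), PDP1 (-0.47, adjusted p = 0.0228), MPC1 (-0.58, adjusted p = 0.0170) and MPC2 (-0.41, adjusted p = 0.0381). All 4 lay between -0.13 and -0.36 after scaling, and none was called there. LDHA and PDK1 were called higher on both scales.

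PC, which feeds oxaloacetate into the citric acid cycle, stood at 7.46, 8.22, 6.13 and 4.81 RPKM in DMOG replicates 1 to 4 and at 6.81, 7.80, 5.90 and 4.62 RPKM in vehicle replicates 1 to 4. The groups overlapped, yet each DMOG library was above the vehicle library of the same number. The log2 fold change after scaling was 0.34 ± 0.17 over the 6 libraries (SE, adjusted p = 0.170) and 0.26 ± 0.18 over the 8 libraries (adjusted p = 0.321). The labels state no pairing. Replicate numbers were taken to pair the 6 libraries from correlations in these same data. Over all 8 libraries, those correlations did not hold for replicates 1 and 2. With the number as a block, a choice that thus rests on the values tested, PC was called higher over the 6 libraries, at 0.34 ± 0.10 (adjusted p = 0.0455). That raised the pyruvate genes called higher to 3, beside 2270 of all genes tested (20.4%) higher and 2260 lower. As deposited the value for PC was 0.07 (adjusted p = 0.781). PC lies at 66615997 to 66725847 on the minus strand of chromosome 11 and overlaps LRFN4 on the opposite strand, which reached 6.04 RPKM with DMOG and 6.88 RPKM with vehicle.

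In order of mean level with DMOG, the 10 genes were LDHA, LDHB, PDP1, MPC1, PDK2, PC, MPC2, PDK1, PDK3 and PDK4. LDHA (885 ± 449 RPKM) and LDHB (50.5 ± 17.4 RPKM) stood clear of the rest. From PDP1 (9.77 ± 1.62 RPKM) to MPC2 (5.73 ± 0.644 RPKM) each neighbour differed by no more than the larger of their SDs, apart from MPC1 (9.07 ± 1.33 RPKM) over PDK2 (7.27 ± 0.804 RPKM). In vehicle libraries LDHA (327 ± 55.2 RPKM) and LDHB (71.4 ± 7.89 RPKM) were followed by MPC1 (13.7 ± 1.93 RPKM), PDP1 (12.5 ± 1.12 RPKM), PDK2 (8.34 ± 1.71 RPKM), MPC2 (7.51 ± 0.731 RPKM) and PC (6.28 ± 1.35 RPKM). There PDP1 exceeded PDK2 by more than either SD, and the other neighbours from MPC1 to PC did not differ by more than the larger SD. PDK1, PDK3 and PDK4 were the 3 lowest in both groups by mean, and PDK1 and PDK3 lay within the SD of PDK1 of each other with DMOG.

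The PDH complex itself, the target of the kinases, was followed through 8 further genes, of which 7 passed the filter. Over the 6 libraries 3 were called lower, 0 higher and 4 were not called, beside 15.8% of all genes tested called lower and 14.4% higher. The median log2 fold change was -0.34 beside 0.01 over all genes. The 3 were PDHA1, the E1 alpha subunit that the kinases phosphorylate (-0.46 ± 0.09, adjusted p = 0.0152), DLAT, the E2 core (-0.48 ± 0.14, adjusted p = 0.0427), and DLD, the E3 subunit (-0.41 ± 0.10, adjusted p = 0.0269). PDHA1 stood at 9.44, 14.1, 9.14 and 7.78 RPKM in DMOG replicates 1 to 4 and at 15.1, 12.4, 15.2 and 15.9 RPKM in vehicle replicates 1 to 4. DLD stood at 9.83, 13.3, 10.1 and 7.95 RPKM in DMOG replicates 1 to 4 and at 15.6, 16.3, 14.5 and 16.9 RPKM in vehicle replicates 1 to 4. As deposited its groups did not overlap, nor did those of DLAT and PDHB, and such separation downwards held for 8.52% of genes with any value. The 3 calls were kept when vehicle replicate 2 was added (adjusted p = 0.0146 to 0.0212), but with a single library left out of the 6 they were kept in 3 (PDHA1), 1 (DLAT) and 2 (DLD) of 6 fits. PC over PDHA1, the RPKM ratio of the 2 mitochondrial entry enzymes, was 0.790, 0.584, 0.671 and 0.618 in DMOG replicates 1 to 4 and 0.451, 0.628, 0.389 and 0.291 in vehicle replicates 1 to 4. It was higher in DMOG replicates 1 and 3 than in any vehicle library. Over the 8 libraries none of the list was called, with a median of -0.26 and values of -0.31 for PDHA1 (adjusted p = 0.143), -0.42 for DLAT (0.119) and -0.39 for DLD (0.119).

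Lactate leaves or enters cells through monocarboxylate transporters. Of 11 further lactate dehydrogenase and transporter genes, 6 passed the filter, and over the 6 libraries 2 were called higher, 1 lower and 3 were not called. Beside this, 14.4% of all genes tested were called higher and 15.8% lower. The median log2 fold change of the list was 0.08. SLC16A1, which encodes the transporter MCT1, was at 45.8, 31.4, 30.1 and 75.9 RPKM in DMOG replicates 1 to 4 and 28.96, 23.9, 23.8 and 29.9 RPKM in vehicle replicates 1 to 4. Its groups did not overlap, as held upwards for 2.09% of genes with any value as deposited and 4.57% after scaling. The log2 fold change of SLC16A1 was 1.07 ± 0.33 (adjusted p = 0.0499). SLC16A3, which encodes the lactate exporter MCT4, was at 118.5, 69.2, 90.2 and 127 RPKM in DMOG replicates 1 to 4 and 75.2, 85.4, 102.9 and 54.4 RPKM in vehicle replicates 1 to 4, with overlap and a log2 fold change of 0.87 ± 0.27 (adjusted p = 0.0487). Both stood at the edge of the threshold: as deposited their adjusted p was 0.0829 (SLC16A1) and 0.104 (SLC16A3), and each was called in 2 of the 6 fits that left out a library. EMB, which encodes a partner protein of monocarboxylate transporters, was called lower at -0.55 ± 0.13 (adjusted p = 0.0229), and was still called in 3 of those 6 fits. BSG, also on this list, was not called (-0.25 ± 0.13, adjusted p = 0.174). Its means were 171 RPKM with DMOG and 229 RPKM with vehicle (n = 4 each). In the 8-library comparison, where none was called and the median was 0.06, the values were 0.89 for SLC16A1 (adjusted p = 0.120), 0.57 for SLC16A3 (0.202) and -0.43 for EMB (0.134).

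Among 12 further genes that make or use pyruvate, 8 passed the filter, and over the 6 libraries 1 was called higher, 2 lower and 5 were not called. The shares over all genes tested were 14.4% higher and 15.8% lower. This list had a median log2 fold change of 0.03. PKM, the kinase that makes pyruvate in the last step of glycolysis, was at 773, 547, 592 and 895 RPKM in DMOG replicates 1 to 4 and 498, 497, 441 and 479 RPKM in vehicle replicates 1 to 4, and rose by a log2 fold change of 0.97 ± 0.19 (adjusted p = 0.0138; kept in 3 of the 6 fits that left out a library). PCK2, the mitochondrial phosphoenolpyruvate carboxykinase, was at 4.30, 86.8, 9.84 and 3.26 RPKM in DMOG replicates 1 to 4 and 93.2, 90.3, 83.0 and 106.6 RPKM in vehicle replicates 1 to 4. It fell by 3.63 ± 0.31 on the log2 scale (adjusted p = 0.00242), while DMOG replicate 2 lay within the vehicle range. GPT2, the mitochondrial alanine aminotransferase that links alanine and pyruvate, was at 7.47, 24.7, 12.5 and 5.56 RPKM in DMOG replicates 1 to 4 and 26.2, 21.1, 26.5 and 24.8 RPKM in vehicle replicates 1 to 4, and fell by 1.27 ± 0.23 on the log2 scale (adjusted p = 0.0104). PCK2 and GPT2 were called in all 6 of the fits that left out a library. With all 8 libraries none was called, the median was 0.03, and the values were 0.75 for PKM (adjusted p = 0.119), -2.75 for PCK2 (0.119) and -0.91 for GPT2 (0.122).

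**Figure D3:**
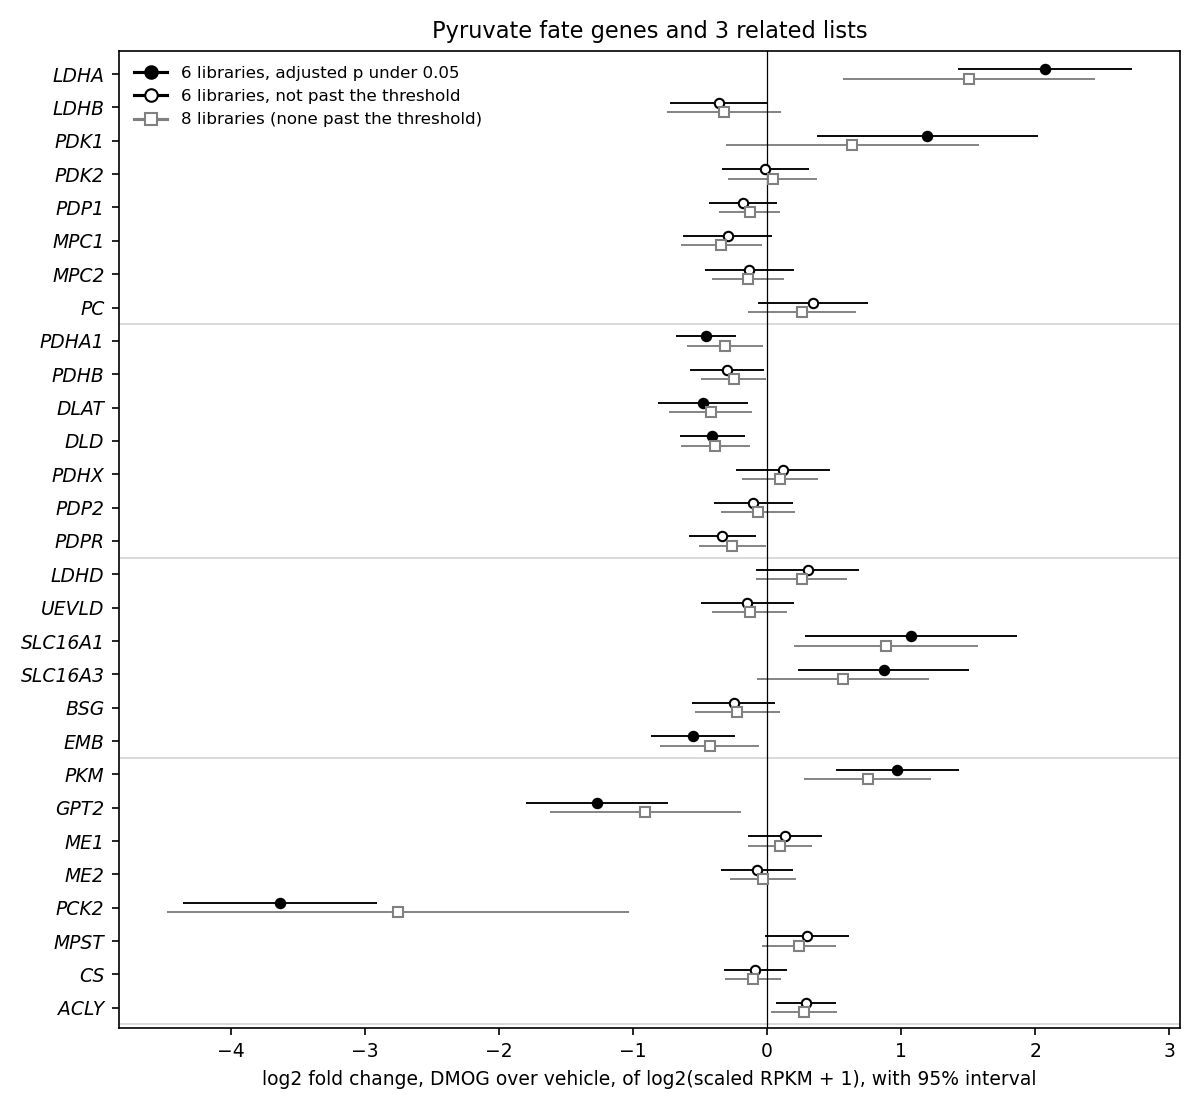
Log2 fold change, DMOG over vehicle, on the log2(scaled RPKM + 1) scale with its 95% interval, for the genes tested among the 10 pyruvate genes (top), the PDH complex, lactate and pyruvate lists (grey lines divide them). Circles are the 6-library comparison, filled where the adjusted p was under 0.05, and squares the 8-library comparison, where none was. LDHA at 2.07 and PDK1 at 1.20 are the 2 filled circles among the pyruvate genes.

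Of 12 regulators known to act on these genes, 11 passed the filter, and over the 6 libraries 2 were called higher, 1 lower and 8 were not called. Among all genes tested, 14.4% were called higher and 15.8% lower. The regulators had a median log2 fold change of 0.08. HIF1A, the oxygen-regulated subunit that DMOG stabilizes as protein, was lower as mRNA, at 37.2 ± 5.89 RPKM with DMOG and 66.1 ± 7.64 RPKM with vehicle (SD, n = 3 each) and a log2 fold change of -0.51 ± 0.12 (adjusted p = 0.0247). PPARD, a nuclear receptor that can induce PDK4, was at 99.8, 41.0, 94.6 and 109.1 RPKM in DMOG replicates 1 to 4 and 39.6, 56.2, 54.3 and 34.2 RPKM in vehicle replicates 1 to 4. It was called higher at 1.56 ± 0.20 (adjusted p = 0.00531), although PDK4 had at most 2 reads in any DMOG library. FOXO3, another known activator of PDK4, was called higher at 0.64 ± 0.18 (adjusted p = 0.0395), but not as deposited (0.33, adjusted p = 0.130). With a single library left out, the calls were kept in 6 of 6 fits for PPARD, 3 for HIF1A and 2 for FOXO3. None was called with all 8 libraries, where the median was 0.11 and the values were -0.42 for HIF1A (adjusted p = 0.119), 1.05 for PPARD (0.120) and 0.55 for FOXO3 (0.119).

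Across the 8 libraries the pyruvate genes did not share a single pattern. On the scaled log2 scale, Pearson's r with LDHA was 0.87 for PDK1, 0.34 for PC and 0.30 for PDK2, and it was -0.80 for PDP1, -0.76 for LDHB, -0.55 for MPC1 and -0.11 for MPC2. These are descriptions over 8 points that share a treatment, with LDHA and PDK1 both highest in DMOG replicate 4. The genes most like LDHA were UBE2R2 (r = 0.999), SMS (0.998) and ANKLE2 (0.997), and 3.85% of genes tested had an r above 0.95 with it. Those most like PDK1 were PUSL1 (0.990), ID1 (0.987) and ID2 (0.984), and those most like LDHB were H2AFY (0.984), TEAD4 (0.983) and TJAP1 (0.975). PC was most like LAMA3 (0.993), FXYD5 (0.951) and NT5E (0.944). PDK2 was most like RNF114 (0.968), NFYC (0.959) and NEDD9 (0.959), and PDP1 was most like ADO (0.953), TMEM242 (0.951) and KCTD12 (0.946). The carrier subunits had different closest genes, TRIM52-AS1 (0.965), MAD2L2 (0.949) and NUDT16 (0.937) for MPC1 and GCAT (0.918), PDXP (0.892) and HNRNPH1 (0.874) for MPC2.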

How the data were processed

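RNA sequencing gave 4 DMOG and 4 vehicle libraries, grouped by the treatment in the labels and numbered by the sample titles. The authors deposited RPKM values for 25369 genes, although their table is called a table of raw counts. The tools that the submitters' processing notes name include HTSeq 0.6.1 and TopHat2 2.0.13 with Bowtie2 2.2.3.0. Whether counting used strand is not given, so genes overlapping another on the opposite strand are uncertain. Whole reads were recovered from the deposited RPKM (100% of values within 0.01 reads). The authors' deposited comparison table covers 13424 genes and holds, per the file headers, normalized signal means, the ratio between them, the log2 of that ratio, and p-values before and after adjustment. Its means were recovered from replicates 1, 3 and 4 of each group to a relative misfit of 4.96e-10.

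RPKM were divided by median-ratio factors (0.837 to 1.13), and log2(value + 1) was fitted with limma-trend (limma 3.58.1, R 4.3.3, robust), two-sided, for genes at 1 RPKM or more in at least 4 of 8 libraries, after testing on simulated data. A fold change is called at an adjusted p under 0.05. The 10 genes, the gene lists and the 6-library comparison were chosen with earlier results of these data known. A marker of another cell type that belonged to these lists is not reported here. All 10 were named, with the genes of each list called in either comparison and the 3 genes of highest r. Alternatives were other scalings, a pseudocount of 0.1, no filter, limma-voom on recovered reads, a replicate block and leaving out each library. Replicate numbers were taken to pair the 6 libraries, because deviations of same-numbered libraries from their group means correlated at 0.46, 0.40 and 0.34. Over all 8 the values for replicates 1 to 4 were 0.07, -0.02, 0.53 and 0.24, so replicates 1 and 2 did not pair. Libraries of different number reached 0.22. Counting error is covered by reads alone, and reads without molecular identifiers are not independent molecules. Promoter windows are from RefSeq (GRCh38.p14). Python 3.11.15 and SciPy 1.17.1 were used for the exact permutation tests.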

Additional observations from a re-analysis of the deposited data

Results flagged for a closer look

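Within a group of 4 libraries, a value was marked when its gap to the next was large against the group's range (Dixon's test at the 95% level). Of 52 groups examined, 6 were marked, and chance marks about 5% of groups. LDHA stood at 410 RPKM in vehicle replicate 2, above 293 to 307 RPKM in the other vehicle libraries. PDK1 stood at 3.44 RPKM in vehicle replicate 2, above 1.12 to 1.38 RPKM in the other vehicle libraries. The share of PDK1 in kinase RPKM was likewise highest in vehicle replicate 2, at 34.6%. EMB was highest in DMOG replicate 2, at 13.1 RPKM, and so was PCK2, at 86.8 RPKM. The ratio of MPC1 to MPC2 was lowest in DMOG replicate 4, at 1.23. Of the 6 marked values, 5 belong to replicate 2 of either group, the libraries that do not enter the authors' deposited means. That count is partly built in. The list genes examined were those called over the 6 libraries, which favours genes where DMOG replicate 2 departs from the other DMOG libraries. PDK1 and its share are also not separate observations.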

How the results depend on the processing

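Depth limits PDK4, at 0 to 13 reads, and the number of libraries limits the rest. Over the 8 libraries, leaving out 1 library gave 0 to 1777 genes higher, 0 to 1928 lower and 0 to 1 pyruvate genes higher. The upper ends came without DMOG replicate 2, and the cause was not tested. Over the 6 libraries, RPKM as deposited gave 682 genes higher and 3836 lower, with 4 pyruvate genes lower, on a scale whose median gene moved by -0.26. Leaving out 1 library there gave 403 to 2358 genes higher, 502 to 2429 lower, 1 to 2 pyruvate genes higher and 0 to 1 lower. Pyruvate genes called higher numbered 1 without a filter and 1 with vehicle replicate 2 added, PDK1 being lost in both. No filter with limma-voom on recovered reads, added after seeing the data, called 1 pyruvate gene lower (PDK4). The DMOG-minus-vehicle difference in the mean log2 ratio of LDHA to LDHB ranged from 1.39 to 2.40 over the 8 libraries with 1 left out. Its exact permutation p was 0.0571 with any 1 vehicle library left out. Over the 6 libraries with 1 left out, the difference ranged from 2.06 to 2.91. PDK2, never called, changed sign as deposited over the 8 libraries (-0.16), with 1 of the 8 left out (-0.064 to 0.11), with vehicle replicate 2 added to the 6 (0.089) and with 1 of the 6 left out (-0.082 to 0.12). LDHA was called in every alternative over the 6 libraries (adjusted p = 0.000787 to 0.0351). With a replicate block, 0 genes were called in either direction over the 8 libraries, and the LDHA to LDHB ratio had an exact sign-flip p of 0.125 over the 8 and 0.25 over the 6, the smallest possible. Over the 6, the block moved the calls of PC and of SLC16A3 (adjusted p = 0.0627).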
